A study of Rattus norvegicus with 6 samples.

Results

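The genes described here were 9 genes of bone morphogenetic protein (BMP) signalling: the ligands Bmp2, Bmp4 and Bmp6, the extracellular antagonists or modulators Grem1, Nog and Bmper, and the target genes Id1, Id2 and Id3. They were found by gene symbol, and all 9 were among the 21857 symbols counted in each library. All 9 were also among the 12941 genes with enough counts to be tested.

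Neonatal rat cardiac fibroblasts (NRCFs) are primary cells grown from the hearts of Sprague-Dawley rats of at most 3 days of age. The sample labels give the strain as "Noway". RNA-seq covered 3 libraries of cells given an empty plasmid (genotype label WT, here Vector) and 3 libraries labelled FTO overexpression, from cells given a pcDNA 3.1 plasmid with the rat coding sequence of FTO, an enzyme that removes methyl groups from m6A in RNA. By the study's methods, cells were collected 48 h after transfection. Fibroblasts had been separated from myocytes by their faster adhesion. The methods name no sort or selection after transfection, so a library holds RNA of all cells of a dish. The labels do not say whether replicates came from separate animals or cultures, so p-values cover the spread between these libraries, which may be technical.

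The 6 libraries held 13178952 to 17857999 counts. Fto, the gene that the plasmid carries, was at 87.4 to 89.6 CPM (counts per library total in the usual unit, after TMM scaling in edgeR, which assumes that most genes are alike between libraries) in the 3 Vector libraries and at 90.8 to 93.2 CPM in the 3 libraries labelled FTO, 1.05-fold (edgeR adjusted p = 0.239). The group name is therefore the label, and the counts do not show that Fto was raised. Whether the counting took in transcripts of the plasmid is not given in the sources used here. All 9 fibroblast markers were well above the floor in both groups, at a summed 38100 to 38900 CPM in Vector and 20200 to 21400 CPM in the libraries labelled FTO. Of these, 5 were higher and 4 lower, among them Dcn (decorin, 47.0 and 5610 CPM on average) and Col1a1 (25800 and 8270 CPM). Of all genes tested, 33.2% passed as higher and 32.8% as lower at an edgeR adjusted p-value under 0.05. Counts of markers here are to be read against these shares. Markers of other cells were present too. The summed CPM of 8 cardiomyocyte markers was 1420 to 1440 in Vector and 2000 to 2030 in the libraries labelled FTO, that of 8 macrophage markers 537 to 563 and 130 to 152, that of 6 mural markers 636 to 661 and 230 to 274, and that of 6 epicardial markers 37.7 to 37.9 and 137 to 154. Members of these lists went both ways. Among the 8 cardiomyocyte markers, only Tnnt2, the largest part of the sum, was lower (770 and 649 CPM on average). The other 7 were higher, 6 of them at least 2-fold. Of 5 tested mural markers, Myh11, Notch3 and Cspg4 were lower while Kcnj8 (29.7-fold) and Abcc9 (5.46-fold) were higher. The epicardial rise was mostly Msln (2.83 and 87.1 CPM on average), and Upk3b was 1.76-fold lower. The sum of 9 endothelial markers was 117 to 122 and 115 to 120 CPM, most of it Flt1 (94.3 and 63.5 CPM on average), with Cldn5 at 0 counts in all 6 libraries. Of the macrophage markers, 7 were lower and 1 was higher. They ranged from C1qb and C1qc, at 204 to 294 counts in each Vector library and at most 2 in those labelled FTO, through Cd68 and Cd163, 2.19-fold and 1.88-fold lower, to Adgre1, 4.65-fold higher. The part of these cells in the results below was not tested. In bulk RNA, a change in the number of cells of a type and a change in RNA per cell cannot be told apart.

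BMPs are secreted ligands of the TGF-β superfamily. They bring together type I and type II receptor kinases, which phosphorylate SMAD1, SMAD5 and SMAD9, and these enter the nucleus with SMAD4. The Id genes are the classic immediate targets. ID proteins have a helix-loop-helix domain but no DNA-binding region, and they hold E proteins and other bHLH factors off DNA. Gremlin 1 and noggin bind BMPs outside the cell and keep them from their receptors, while BMPER can dampen or promote BMP signalling depending on its dose. In the heart, BMP2 and BMP4 are best known for valve and septum formation, and BMP signalling is often described as an opponent of TGF-β in fibroblasts.

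To see how the 9 genes differed between the groups, their CPM were compared library by library. In all, 7 genes were higher in the libraries labelled FTO, 1 (Bmp4) was lower and 1 (Id2) did not pass the edgeR quasi-likelihood test at an adjusted p-value under 0.05. The difference ranged from 9.61-fold higher for Bmp2 to 3.80-fold lower for Bmp4. The groups did not overlap in 8 of the 9 genes. These counts are to be read against the whole table, where 65.9% of the genes tested passed, 33.2% as higher and 32.8% as lower, and where 70.3% showed no overlap. The median log2 fold change of the 9 genes was 0.50 and that of all genes tested was 0.00. Of the 9 genes, 4 (Bmp2, Bmp4, Nog and Id1) also changed at least 2-fold, as 19.6% of all genes tested did.

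**Figure D1:**
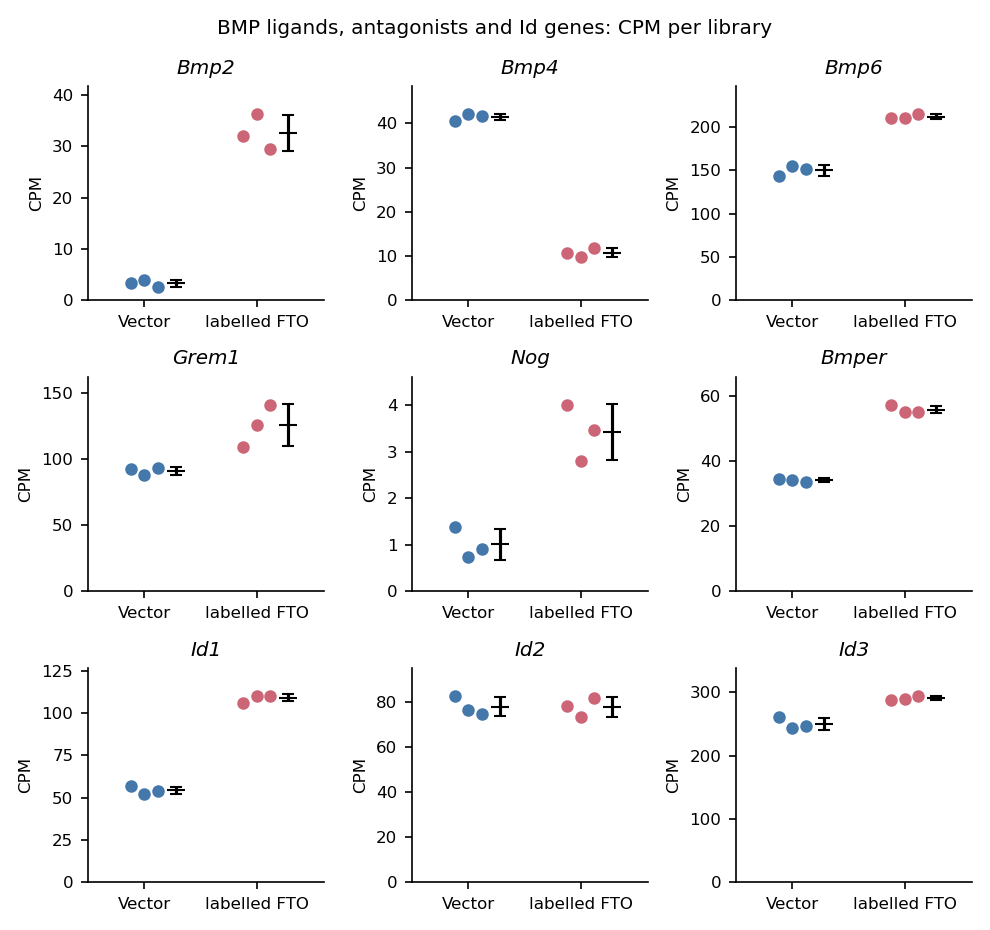
TMM-scaled CPM of each of the 9 genes in 3 Vector libraries (blue) and 3 libraries labelled FTO (red), with the mean ± SD in black and each axis starting at 0. Bmp4 is the only panel with the libraries labelled FTO below Vector, and Id2 (73.3 to 82.7 CPM over all 6) is the only one with overlapping groups.

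The 3 ligands moved in different directions. BMP2 and BMP4 are close relatives that use the same receptors, and both are able to induce bone and to pattern the embryonic heart. Bmp2 was at 3.37, 4.03 and 2.70 CPM in Vector replicates 1, 2 and 3, and at 32.0, 36.3 and 29.4 CPM in the 3 replicates labelled FTO. Each library of the second group thus lay far above each Vector library, whose values came from only 39 to 60 counts. Bmp2 increased from 3.36 ± 0.662 to 32.6 ± 3.51 CPM (SD, n = 3 each, fitted log2 difference 3.26, SE 0.134, edgeR adjusted p = 8.13e-12).

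Bmp4 was at 40.6, 42.1 and 41.6 CPM in the Vector libraries and at 10.8, 9.89 and 11.8 CPM in those labelled FTO. The groups were far apart and the Vector values were tight, with an SD of 1.87% of the mean. Bmp4 decreased from 41.4 ± 0.773 to 10.8 ± 0.946 CPM (SD, n = 3 each, fitted log2 difference -1.93, SE 0.0823, edgeR adjusted p = 1.3e-11). Among all genes tested, the log2 fold change of Bmp4 stood at the 3.36th percentile and that of Bmp2 at the 97.8th.

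BMP6 belongs to another branch of the ligands, together with BMP5 and BMP7, and is known for its control of iron through hepcidin. Bmp6 was at 143, 155 and 151 CPM in Vector and at 210, 210 and 215 CPM in the libraries labelled FTO. The rise was 1.41-fold (95% confidence interval 1.32 to 1.51, edgeR adjusted p = 9.33e-08), and the groups did not overlap.

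The 3 antagonists or modulators were all higher in the libraries labelled FTO. Nog, which encodes noggin, was the least counted of the 9 genes, with 19, 11 and 13 counts in the Vector libraries (1.39, 0.738 and 0.900 CPM) and 57, 37 and 62 counts in those labelled FTO (4, 2.79 and 3.46 CPM). Even the lowest library of the second group was above the highest of Vector. The 3.41-fold rise has a wide 95% confidence interval, 2.28 to 5.08 (edgeR adjusted p = 3.6e-05). Within the Vector group, the SD of Nog was 33.6% of the mean, the largest such spread of the 9 genes.

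Grem1 encodes gremlin 1, which binds BMP2 and BMP4 with high affinity. Its CPM were 92.2, 87.8 and 93.1 in Vector and 109, 126 and 141 in the libraries labelled FTO. Replicate 1 of these was the closest to Vector and replicate 3 the farthest, and the SD rose from 3.08% to 12.6% of the mean. Grem1 was 1.38-fold higher (95% confidence interval 1.24 to 1.54, edgeR adjusted p = 4.55e-05).

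Bmper had CPM of 34.6, 34.2 and 33.5 in Vector and of 57.2, 55.1 and 55.1 in the libraries labelled FTO. The SD was 1.6% of the mean in Vector and 2.11% in the other group, and the groups were well apart. It was 1.64-fold higher (95% confidence interval 1.5 to 1.78, edgeR adjusted p = 3.85e-08).

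Of the 3 Id genes, Id1 rose 2-fold, Id3 rose by less and Id2 did not pass. Id1 was at 56.6, 52.3 and 54.1 CPM in Vector and at 106, 110 and 110 CPM in the libraries labelled FTO. The replicates of each group were close together and the groups were far apart. Id1 increased from 54.3 ± 2.15 to 109 ± 2.16 CPM (SD, n = 3 each, fitted log2 difference 1.0, SE 0.0517, edgeR adjusted p = 1.32e-10). Its value lies on the 2-fold line itself, between 0.97 and 1.03 on the log2 scale under the alternatives tried.

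Id3 was at 261, 243 and 246 CPM in Vector and at 288, 289 and 294 CPM in the libraries labelled FTO, with no overlap. The rise was 1.16-fold (95% confidence interval 1.09 to 1.24, edgeR adjusted p = 3.44e-04), and in absolute size it exceeded the change of only 33.1% of all genes tested.

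For Id2 no difference was detected. Its CPM were 82.7, 76.5 and 74.7 in Vector and 78.3, 73.3 and 81.8 in the libraries labelled FTO, so the groups were interleaved. The fitted log2 difference was -0.0006 (SE 0.0585, edgeR adjusted p = 0.993), and its 95% confidence interval ran from 0.917-fold to 1.09-fold. Counting was not thin, at a mean of 1150 counts per library.

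**Figure D2:**
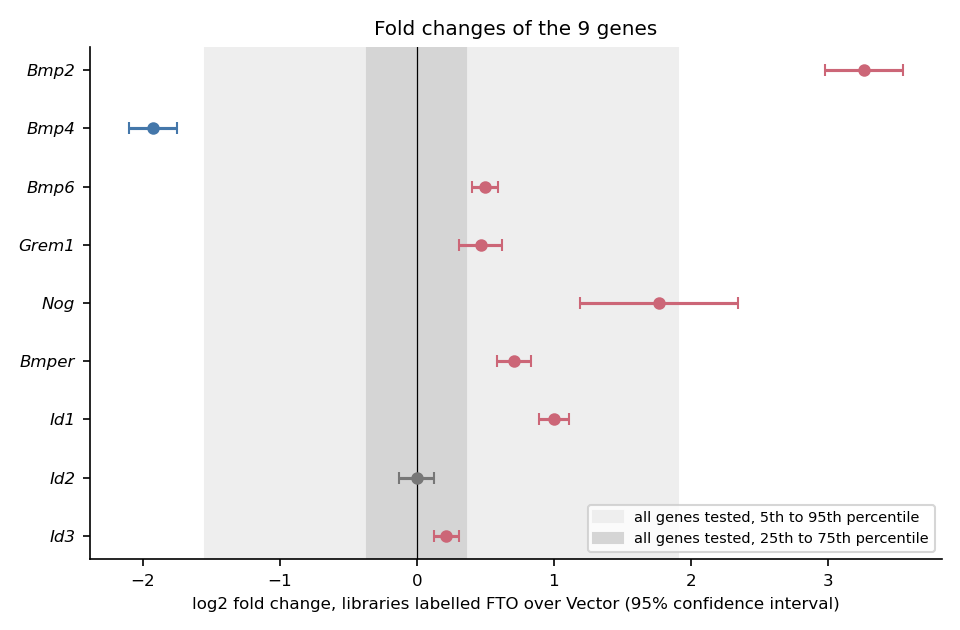
Fitted log2 fold change (points) of the libraries labelled FTO over Vector with its 95% confidence interval (bars) for the 9 genes, red where higher, blue where lower and grey where the adjusted p-value was not under 0.05. Bands show the 25th to 75th (-0.36 to 0.36) and the 5th to 95th percentile (-1.55 to 1.91) of all genes tested, and only Bmp2 and Bmp4 lie outside the wider band.

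Scaling between libraries cancels when 2 genes are set against each other in the same library, and gene length cancels when such a ratio is compared between groups. The ratio of Grem1 counts to Bmp4 counts was 2.27, 2.08 and 2.24 in the Vector libraries and 10.1, 12.8 and 12 in those labelled FTO. Grem1 thus gained on Bmp4 by 5.27-fold. Against Bmp2, whose product gremlin 1 also binds, Grem1 did not gain, since Bmp2 rose 9.61-fold and Grem1 1.38-fold. A ratio of Grem1 to Bmp2 was not taken. The ratio of Id2 to Id1 counts went from 1.46, 1.46 and 1.38 to 0.737, 0.664 and 0.745. That of Id3 to Id1 went from 4.62, 4.65 and 4.55 to 2.71, 2.63 and 2.68. In each of the 3 ratios the groups were fully separate. The ratios are made of the same counts as the values above, so their separation follows from those values and is no further evidence. The two-sided exact permutation test over libraries gave p = 0.10, the smallest value that 3 libraries against 3 allow, so this test cannot pass 0.05. Levels of different genes were not ranked, because transcript lengths were not used here.

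**Figure D3:**
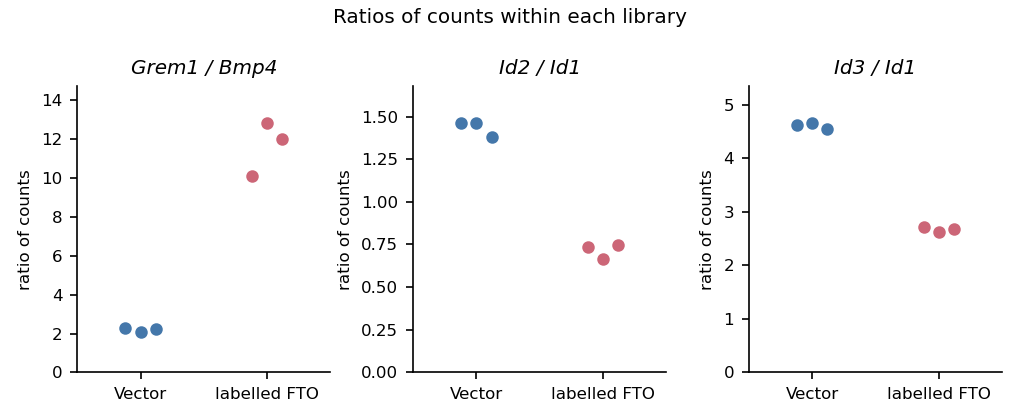
Ratio of the counts of Grem1 to Bmp4, Id2 to Id1 and Id3 to Id1 in each of 3 Vector libraries (blue) and 3 libraries labelled FTO (red), on linear axes from 0. The Grem1 to Bmp4 ratio is 2.08 to 2.27 in Vector and 10.1 to 12.8 in the libraries labelled FTO, and both Id ratios lie lower in all 3 of the latter.

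Since Id1, Id2 and Id3 are paralogs whose values differed in this way, the RefSeq sequence before the start of each is shown, from the GRCr8 build and cut before the first annotated base of the gene. The deposited counts were made on rn6, and no coordinates were converted. Promoter windows of 300 bases (250 before and 50 after a RefSeq start) were found for 8 of the 9 genes, all but Bmp2. They were searched on both strands for the GC-rich SMAD element GGCGCC, the SMAD box CAGAC, the CCAAT box CCAAT and the TATA box TATAAA. None of the 4 motifs contains another. Capitals mark matches to any of them, with ATTGG being CCAAT on the other strand.

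Id1, chr3:161671314-161671524, plus strand: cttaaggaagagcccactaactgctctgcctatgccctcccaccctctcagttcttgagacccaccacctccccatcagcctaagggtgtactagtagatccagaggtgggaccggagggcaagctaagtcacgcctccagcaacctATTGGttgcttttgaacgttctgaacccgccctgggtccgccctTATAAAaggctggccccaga
Id2, chr6:47470996-47471245, minus strand: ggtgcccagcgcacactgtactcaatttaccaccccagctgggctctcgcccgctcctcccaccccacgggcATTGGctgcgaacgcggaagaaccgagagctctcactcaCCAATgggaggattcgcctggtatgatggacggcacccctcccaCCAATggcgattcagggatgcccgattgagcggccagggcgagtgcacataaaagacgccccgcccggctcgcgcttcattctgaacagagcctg
Id3, chr5:153656041-153656252, plus strand: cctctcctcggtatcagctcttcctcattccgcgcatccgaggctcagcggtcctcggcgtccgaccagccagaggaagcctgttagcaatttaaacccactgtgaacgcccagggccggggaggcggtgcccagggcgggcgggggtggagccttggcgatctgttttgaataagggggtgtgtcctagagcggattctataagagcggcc

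Id1 held 1 match to TATAAA and 1 to CCAAT before the start, and its only match to CAGAC lay in the 50 bases after the start. Id2 held 3 matches to CCAAT and none to TATAAA. Id3 held no match to any of the 4 motifs, and GGCGCC was in none of the 3 windows. Bases more than 250 before the start were not searched, so elements farther out would be missed. Whether these sequences bear on the differences between the Id genes was not tested. Among the 33469 promoter windows of the reference, GGCGCC was in 11%, CAGAC in 50.1%, CCAAT in 37.5% and TATAAA in 14.2%.

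The windows of Grem1, Nog and Bmper, the 3 antagonists or modulators, each held GGCGCC once. Those of Bmp4, Bmp6, Id1, Id2 and Id3 held none, and of these Bmp6, Id1 and Id3 were also higher in the libraries labelled FTO. Matches were not looked up for other antagonists or modulators, and the motifs were chosen with the results known. Whether GGCGCC bears on any of the changes was not tested. The GGCGCC sites are shown with 12 bases on either side and only that motif in capitals.

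Grem1, chr3:120978393-120978422, minus strand: cgcggcggcgacGGCGCCtgaccaatggag
Nog, chr10:74627535-74627564, minus strand: cagcgaggagccGGCGCCcccagcgcccca
Bmper, chr8:30008018-30008047, plus strand: gaggcagcgggaGGCGCCgggtcttctgct

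The sites began 91, 51 and 136 bases before the starts of Grem1, Nog and Bmper. Their windows are rich in G and C, at 70.0%, 73.0% and 70.0%, and the 11% for all promoters was not matched for this. A match is a description of the letters and not a measured binding site.

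To place the 9 genes among the rest of the pathway, 64 other BMP pathway genes were examined in the same fit. All 64 were in the files and 45 had enough counts to be tested. Of these, 18 were higher, 19 were lower and 8 did not pass, with a median log2 fold change of -0.02. The share that passed, 37 of 45, stands beside 65.9% of all genes tested.

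Of 12 other ligands only 3 were tested. Gdf6, a ligand of joints and of the eye field, decreased from 254 ± 3.04 to 52.1 ± 6.18 CPM (SD, n = 3 each), 4.87-fold (edgeR adjusted p = 8.85e-14). The fall of Bmp4 was 3.80-fold. Bmp3, a ligand with an inhibitory action on bone formation, was 1.81-fold higher, at 20.8 to 24.4 CPM in Vector and 34.2 to 47.0 CPM in the libraries labelled FTO. Bmp7 was at 1.17 ± 0.282 and 1.56 ± 0.505 CPM and did not pass (edgeR adjusted p = 0.267). The other 9 ligands, among them Bmp5, Bmp10 and Gdf2, had at most 9 counts in any library.

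Among 18 other antagonists and modulators, 12 were tested and all 12 passed, 6 higher and 6 lower. This stands beside 65.9% of all genes tested that passed. The call of Kcp (edgeR adjusted p = 0.0375) was lost under 8 of 13 alternatives, among them DESeq2, the replicate block and leaving out any 1 library but FTO replicate 3. Fst, which encodes the activin-binding follistatin, rose 3.94-fold from 21.5 ± 1.04 to 84.5 ± 6.59 CPM (edgeR adjusted p = 1.86e-12). Nbl1, which encodes the BMP antagonist DAN, rose 2.85-fold from 38.3 ± 0.379 to 109 ± 11.3 CPM (edgeR adjusted p = 4.23e-11), and Chrdl1, a chordin-like antagonist, rose 3.5-fold from 5 to 8 counts per Vector library to 21 to 30. The largest decreases were those of the tolloid-like protease Tll1, which cleaves chordin (3.13-fold, from 24.6 ± 1.07 to 7.82 ± 0.504 CPM), of the follistatin-like Fstl1 (2.18-fold, from 2240 ± 19.5 to 1030 ± 7.35 CPM) and of the pseudoreceptor Bambi (1.93-fold, from 21.5 ± 1.80 to 11.2 ± 1.69 CPM). The list thus held changes in both directions.

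Of the receptors and coreceptors, 11 of 12 were tested, 6 were higher, 3 lower and 2 did not pass, beside 33.2% higher and 32.8% lower of all genes tested. The 2 that did not pass were the type I receptor gene Bmpr1a at 87.5 ± 3.97 and 89.8 ± 8.83 CPM and the type II receptor gene Bmpr2 at 68.3 ± 4.32 and 67.2 ± 13.5 CPM. Without FTO replicate 3, Bmpr2 passed as lower (edgeR adjusted p = 0.0402). Acvrl1, which encodes the type I receptor ALK1, increased 2.09-fold from 64.4 ± 1.70 to 134 ± 3.63 CPM (edgeR adjusted p = 3.16e-11). Acvr1, which encodes the type I receptor ALK2, decreased 1.5-fold from 64.0 ± 1.33 to 42.7 ± 2.14 CPM (edgeR adjusted p = 3.94e-07). Bmpr1b rose 2.42-fold from a low 1.02 ± 0.363 CPM, and Acvr2a rose 1.19-fold. ALK1 and its coreceptor endoglin are best known from endothelial cells. Eng, the endoglin gene, rose only 1.12-fold. Of 6 endothelial markers tested, 4 were higher, beside 33.2% of all genes tested. These were Kdr (1.87 and 8.21 CPM on average), Cdh5 (1.88 and 5.65 CPM), Tek and Egfl7. Flt1 was lower and Tie1 did not pass (edgeR adjusted p = 0.878). The sum of all 9 markers was 117 to 122 CPM in Vector and 115 to 120 CPM in the libraries labelled FTO. The part of endothelial cells in the rise of Acvrl1 was not tested.

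Among coreceptors of the repulsive guidance family, Rgma was 1.39-fold higher. Rgmb was lower (edgeR adjusted p = 0.0379), a call that did not hold under 6 of 13 alternatives, among them leaving out Vector replicate 1 or 2 or FTO replicate 1 or 2. Neo1, which encodes their receptor neogenin, decreased 1.49-fold. Hfe2, which encodes hemojuvelin, passed as higher, but on 1, 2 and 5 counts in Vector and 27, 12 and 16 counts in the libraries labelled FTO. Its fitted log2 difference was 2.66, and 3.43 without Vector replicate 3.

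Among the SMAD genes and their ubiquitin ligases, 7 of 8 were tested, 1 was higher, 4 were lower and 2 did not pass, beside 32.8% lower of all genes tested. Smad6, the inhibitory SMAD of the BMP branch, was at 44.7, 38.6 and 37.5 CPM in Vector and at 20.2, 17.4 and 20 CPM in the libraries labelled FTO (fitted log2 difference -1.06, SE 0.0873, edgeR adjusted p = 3.76e-08). The groups were far apart. Smad7, the inhibitory SMAD shared with TGF-β signalling, fell 1.32-fold, Smurf1 1.96-fold and Smurf2 1.43-fold. Of the transducers, Smad1 rose 1.27-fold from 88.5 ± 1.40 to 112 ± 2.84 CPM, while Smad5 (37.4 ± 0.647 and 33.6 ± 4.87 CPM) and the common partner Smad4 (75.5 ± 2.52 and 71.6 ± 3.44 CPM) did not pass. Smad5 passed as lower without FTO replicate 3 (edgeR adjusted p = 0.00328).

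Of 7 other response genes, 5 were tested, 0 were higher, 3 were lower and 2 did not pass, beside 33.2% higher and 32.8% lower of all genes tested. With 5 genes, nothing is read from this count. The fourth Id gene, Id4, was 1.20-fold lower, at 24.8 to 31.6 CPM in Vector and 22.5 to 24.3 CPM in the libraries labelled FTO (edgeR adjusted p = 0.0167). Without Vector replicate 1 its adjusted p-value was 0.0975. Atoh8, a bHLH factor, was 1.25-fold lower, and Runx2, the regulator of osteoblasts, 1.5-fold lower. So, of the 4 Id genes, 2 rose, 1 fell and 1 did not pass.

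The bHLH genes whose products are partners of ID proteins were all expressed, and 6 of 7 passed, 4 higher and 2 lower. Of all genes tested, 65.9% passed, 33.2% as higher and 32.8% as lower, and with 7 genes nothing is read from this count. The E protein gene Tcf3 fell 1.49-fold from 89.6 ± 4.05 to 60.1 ± 2 CPM (edgeR adjusted p = 2.01e-07). Tcf4 rose 1.21-fold, and Tcf12 did not pass at 68.9 ± 3.07 and 71.8 ± 10 CPM, though it passed as higher without FTO replicate 2 (edgeR adjusted p = 0.0155). Tcf21, a marker of cardiac fibroblasts, fell 1.33-fold. Twist2 and Twist1, mesenchymal bHLH genes, rose 2.26-fold and 1.63-fold, and Hand2 rose 1.49-fold from 28 to 50 counts per Vector library to 52 to 61. The call of Hand2 (edgeR adjusted p = 0.0343) was lost on leaving out Vector replicate 1, Vector replicate 2, FTO replicate 1 or FTO replicate 2 (0.0561 to 0.132). It was also lost with DESeq2 (DESeq2 adjusted p = 0.0693).

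**Figure D4:**
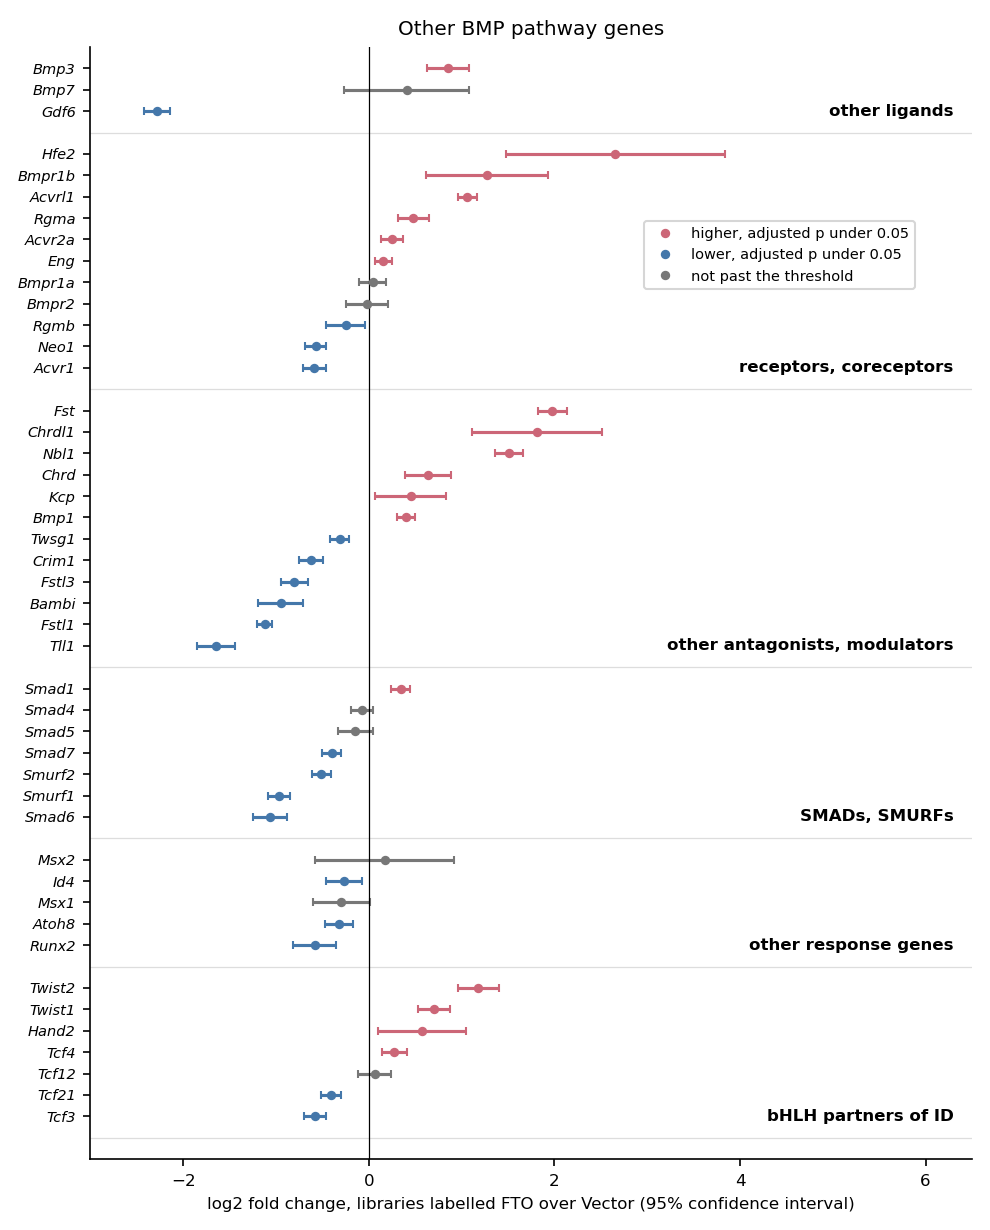
Fitted log2 fold change (points) of the libraries labelled FTO over Vector with its 95% confidence interval (bars) for the 45 tested genes of 64 other BMP pathway genes, grouped by role and ordered by size within each role. Gdf6 (-2.28) is the lowest, Hfe2 (2.66, on few counts) the highest, and none of the 5 tested response genes is past the threshold on the higher side.

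The gene whose log2 CPM followed each of the 9 genes most closely over the 6 libraries was looked up among 9232 or 9233 genes with a mean of at least 10 CPM. These were Ebp for Bmp2 (Pearson r = 0.99994), Dysf for Bmp4 (0.99999), Gcnt2 for Bmp6 (0.99968), Patj for Grem1 (0.99588), Dhps for Nog (0.99500), Medag for Bmper (0.99966), Ca5b for Id1 (0.99976), Kif7 for Id2 (0.99061) and Tspyl2 for Id3 (0.99887). Such values are a description only, since the 6 points fall into 2 groups and r does not depend on the size of a change, which was 1.24 on the log2 scale for Ebp and 3.26 for Bmp2. For Bmp2, 1964 genes exceeded an r of 0.95, and for Id1 1999 did. For Grem1 there were 87 and for Id2 6.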

How the data were processed

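The deposited files held raw counts, 1 whole number per gene symbol in 1 file per library. Per the labels, libraries were made from total RNA with the NEBNext Ultra RNA kit, and the submitters' processing notes name Trimmomatic and the rn6 build. Not given in the sources used here are the aligner, the counting program, its gene models and whether strand was used, so that reads of paralogs and of overlapping or antisense genes may be mixed.

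Groups came from the genotype labels. Genes were kept with filterByExpr (minimum count 10), scaled by TMM and compared with the quasi-likelihood test of edgeR 4.0.16 in R 4.3.3, two-sided, without covariates, with Benjamini-Hochberg adjustment over all 12941 genes tested. SE came from the log2 fold change and the F statistic. The study names no RNA-seq test, only a log2 fold change of at least 1 and p under 0.05. The procedure was tested on simulated counts, and the outcome is not given here. The 9 genes, the pathway and marker lists and the rules for naming genes were chosen with earlier results of these data known. From the pathway list, the text names the called genes with the largest change in each direction per role and all tested receptors and SMADs. An item of that list is not reported here. Bmp5, Bmp7, Bmp10, Gdf2, Kcp, Tcf4 and Tcf12 were named after their values were seen, and the motifs were chosen with the results known. For likeness, log2 CPM used a prior count of 2.

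Replicates were separate libraries, since counts differed by more than sampling noise in every within-group pair (chi-square per degree of freedom 1.58 to 8.38). Same-numbered libraries did not deviate together (r = 0.0035, -0.0789 and 0.0346). Alternatives were DESeq2 1.42.0, limma-voom (limma 3.58.1), other scalings and filters, the replicate number as a block, a 2-fold limit and leaving out each library. Promoter sequences are RefSeq, build GRCr8, matched by symbol.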

Additional observations from a re-analysis of the deposited data

How the results depend on the processing

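The 8 calls among the 9 genes, 7 higher and 1 lower, were each made under all 13 alternatives of test, scaling, filter, block and left-out library, and Id2 passed under none. Requiring a 2-fold change as well, which is stricter by construction, left 4 of the 9 genes (3 higher), 11 of the pathway genes (7 higher and 4 lower) and 2538 of all genes. The sign of Id2, near 0, turned to 0.0020 with limma-voom and 0.0074 with library size alone. Over the fits that left out 1 library, log2 values ran from -0.0423 (FTO replicate 3) to 0.0424 (FTO replicate 2) for Id2, with 0.0402 without Vector replicate 1. They ran from -0.0409 (FTO replicate 3) to 0.1082 (FTO replicate 2) for Bmpr1a, from -0.1834 (FTO replicate 3) to 0.1163 (FTO replicate 2) for Bmpr2 and from -0.0312 (FTO replicate 3) to 0.1695 (FTO replicate 2) for Tcf12, each with a change of sign. The cause was not tested. Calls were gained for Bmpr2 and Smad5 without FTO replicate 3 and for Tcf12 without FTO replicate 2. Over the 55 genes followed, 9 changed somewhere: calls were lost 20 times and gained 3 times, and signs turned 8 times. The lost calls were those of Kcp, Rgmb, Hand2 and Id4. Over the fits that left out 1 library, the pathway genes called numbered 33 to 39.

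No pairing of the libraries by replicate number was detected, though with 3 libraries per group a weak one could be missed. With the replicate block, 8399 of all genes, 8 of the 9 genes and 35 pathway genes passed, Rgmb and Kcp not among them. Depth limits Nog, with 11 to 19 counts per Vector library, Hfe2 and Chrdl1.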
